A study of Mus musculus with 12 samples.

Results

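Of the 12774 gene symbols in the expression table, 83 were cytosolic ribosomal protein symbols. They were chosen by name alone: symbols starting with Rpl or Rps and a digit, Rplp0, Rplp1, Rplp2 and Rpsa, without the Rps6 kinases. The 83 symbols were 45 standard genes of the large subunit, 30 standard genes of the small subunit, 6 paralogs (Rpl22l1, Rpl36al, Rpl3l, Rpl7l1, Rps27l and Rps4y2) and 2 others. The 2 others were Rpl34-ps1, whose 12 values equalled those of Rpl34, and Rps19bp1, which encodes a binding partner of Rps19 and is not a ribosomal protein. Rpl35a and Rps21 were not analysed here.

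The libraries came from C17.2, a mouse neural progenitor line, in 2 stably transfected forms: C17.2a carried a tagged thyroid hormone receptor alpha and C17.2b a tagged receptor beta. All cells spent 24 h without serum first, and then received either no hormone or 1e-07 M of triiodothyronine (T3, the form of thyroid hormone that binds these receptors) until harvest at 6, 12 or 24 h. Each of the 12 combinations of line, treatment and time had 1 library of sequence tags made from polyA RNA. Whether the libraries stem from separate cultures, and whether a line was 1 clone, the labels do not say. The study asked which genes follow the hormone over time in each line.

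The values were RPM, tags scaled to the same total in each library. The implied depth was 7.13e+06 to 1.91e+07 tags a library, at which 3 tags stand for 0.157 to 0.421 RPM. Of the 10 neural progenitor markers, 7 had a median over 10 RPM, Msi1 was low and Pax6 was not analysed here. The 1 of 5 microglia markers analysed here read at most 0.42 RPM, and the 3 of 5 astrocyte markers summed to 36.7 to 60.5 RPM. A list of fibroblast and muscle markers summed to between 1259 and 7302 RPM, nearly all of it from the collagen genes Col1a1 and Col1a2. In bulk RNA, fewer cells of a type and less RNA per cell cannot be told apart.

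Ribosomal proteins form the protein part of the large and the small ribosomal subunit, which join on messenger RNA to make protein. Their messenger RNAs are among the most abundant in growing cells, and many begin with a C and a run of pyrimidines, the TOP tract, through which their translation follows nutrient and growth factor signals by way of mTOR. The stalk proteins Rplp0, Rplp1 and Rplp2, anchored beside Rpl12, recruit translation factors. Rpl5 and Rpl11 bind the 5S ribosomal RNA and, when free, bind Mdm2, the ligase that keeps p53 low.

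RefSeq start windows in the mouse build GRCm38.p6 were found for 61 of the 83 symbols, 70 windows in all. A C at the annotated start followed by at least 4 more C or T was in 11 of the 70 windows (15.7%), against 2.51% of 32851 windows of all genes. The run is shown because it is the sequence feature that these genes are known to share. In each 30-base window below, 10 bases precede the annotated start and 20 follow from it, read 5′ to 3′ on the gene's strand. Capitals mark the pyrimidine run, or the single start base where the gene had no such run. The first 6 windows have the run.
Rps6, chr4:86857348-86857377, minus strand: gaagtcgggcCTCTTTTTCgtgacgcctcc
Rps27, chr3:90213629-90213658, minus strand: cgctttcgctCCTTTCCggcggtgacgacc
Rps18, chr17:33955646-33955675, minus strand: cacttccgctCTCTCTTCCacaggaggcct
Rps10, chr17:27635225-27635254, minus strand: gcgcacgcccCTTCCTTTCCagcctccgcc
Rpl15, chr14:18270967-18270996, minus strand: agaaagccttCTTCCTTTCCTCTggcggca
Rplp2, chr7:141447641-141447670, plus strand: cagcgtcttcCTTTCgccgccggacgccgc
The next 4 windows are of genes without the run at the annotated start that moved far in the comparisons below.
Rpl37a, chr1:72711250-72711279, plus strand: ctcgccggtcTaaaaccgcgcatgcgcatt
Rplp0, chr5:115559457-115559486, plus strand: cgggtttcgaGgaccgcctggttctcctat
Rpl7a, chr2:26910797-26910826, plus strand: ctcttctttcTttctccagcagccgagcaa
Rpl5, chr5:107900518-107900547, plus strand: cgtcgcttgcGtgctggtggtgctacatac

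The Rpl7a window has a run of 7 pyrimidines that begins with T, so it fell outside the definition, which needs a C at the annotated start. The other genes with the run were Rpl14, Rpl28, Rpl35, Rpl38 and Rps15a. Over the whole windows of 250 bases before and 50 from the start, on both strands, CCGGAAG, the core that ETS-family factors bind, was in 34.3% of the members' windows and 8.86% of all windows. AAGATGGC, the core of the YY1 motif, was in 7.14% and 2.75%. These matches describe the annotated sequence only, and the starts used in C17.2 cells were not measured.

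The ribosomal protein symbols took a large share of all tags. The share was lowest in the untreated C17.2a library at 12 h, 11.8% of all RPM, and highest in the untreated C17.2a library at 24 h, 19.2%. In C17.2a it was 14.8% untreated and 13.2% with T3 at 6 h, 11.8% in both at 12 h, and 19.2% and 15.8% at 24 h. In C17.2b it was 14.8% and 14.7% at 6 h, 15.0% and 14.2% at 12 h, and 18.9% and 15.9% at 24 h. Both untreated 24 h libraries were above the other 10 libraries, and the 24 h libraries with T3 lay between them and the rest.

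**Figure D1:**
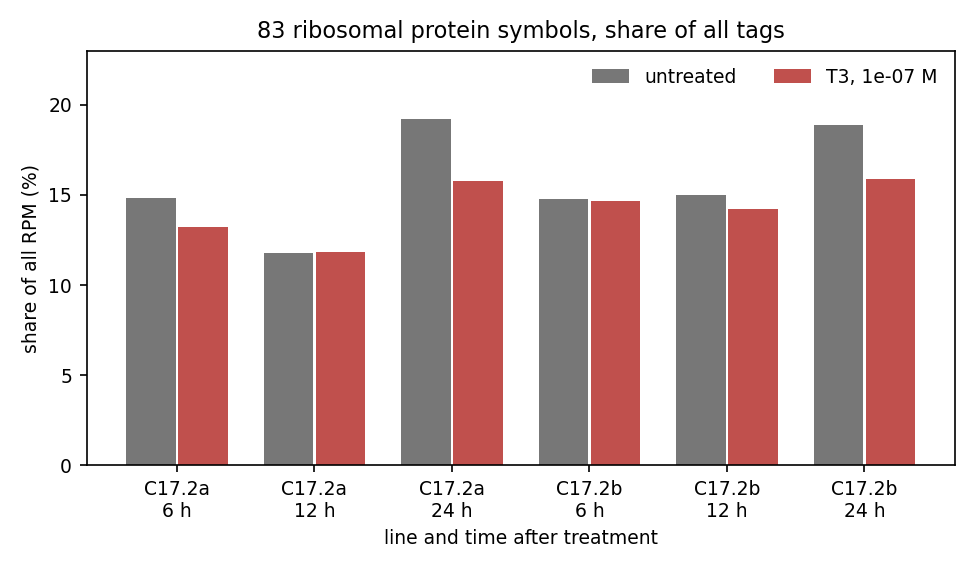
Share of all RPM (%) taken by the 83 ribosomal protein symbols in each of the 12 libraries, by line and time on the x axis; grey bars are untreated, red bars had T3, and each bar is 1 library with no error. The untreated 24 h libraries stand highest, at 19.2% and 18.9%, against 11.8% to 15.9% in the others.

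Of the 83 symbols, 67 had at least 100 RPM in every library and 33 had at least 1000 RPM. The highest single reading was of Rpl32, a large-subunit protein, at 12977 RPM in the untreated C17.2b library at 6 h. The sources used here do not say how many tags a transcript can give, so RPM readings of different genes are not ranked as amounts of mRNA. Some standard genes read low: Rpl26 at 5.17 to 20.3 RPM, Rpl4 at 15.0 to 29.2 RPM and Rps4x at 36.4 to 88.5 RPM. Rpl6 was N/A in 3 libraries and reached at most 0.53 RPM in the others, although its protein is a core part of the large subunit.

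Among the paralogs, Rpl3l was N/A in 5 libraries and at most 0.21 RPM. Rpl3l is known as the heart and skeletal muscle form of Rpl3. Rps4y2, which RefSeq lists under Rps4l as a transcribed pseudogene, read 0.35 to 1.63 RPM, and Rps19bp1 read 0.18 to 3.57 RPM. Rpl3l and Rpl6 did not pass the filter of 1 RPM in 3 libraries, which left 81 symbols in the tests on T3. In the tests on untreated cells 79 symbols were left, since Rps4y2 and Rps19bp1 passed only in the larger fit.

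In untreated cells most of the movement was with time. Between the 6 h and the 24 h harvest, 41 of the 79 symbols rose and 5 fell, by limma on log2(RPM + 1) with line as a block and a Benjamini-Hochberg adjusted p under 0.05. Rpl34 and Rpl34-ps1, with equal values, both count among those that rose, here and below. These p-values measure how far the 2 lines differ in their change with time, not the spread between replicate cultures. Of all 10192 genes tested, 43.0% rose and 13.1% fell, so the share of ribosomal protein symbols that rose, 51.9%, was not far from that of genes at large. The members' median log2 fold change was 0.72, and that of all genes 0.40. A second scaling, by median ratios, moved the median of all genes to -0.02 and that of the members to 0.25. It left 26 symbols higher and 12 lower, against 24.4% higher and 26.3% lower over all genes. All 41 symbols that rose kept a positive sign under it, 26 of them with a call, and all 5 that fell kept their call. Without the C17.2b untreated 6 h library 28 symbols rose and 2 fell, against 30.3% and 8.68% of all genes in that fit. Without the C17.2a one 31 rose and 1 fell, against 33.9% and 8.22%.

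Rpl37a, a large-subunit protein, had the largest change with time. It read 459 and 554 RPM in the untreated 6 h libraries of C17.2a and C17.2b, 487 and 658 RPM at 12 h, and 4134 and 3855 RPM at 24 h. Both 24 h readings were far above the 4 earlier ones, with no overlap. Its log2 fold change was 2.98 (SE 0.21, adjusted p 1.61e-05), 7.90-fold.

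Rplp0, the protein at the base of the stalk that holds Rplp1 and Rplp2, read 166 and 117 RPM at 6 h, 91.2 and 62.9 RPM at 12 h, and 960 and 606 RPM at 24 h. The 24 h libraries were again above all earlier ones in both lines. Its log2 fold change was 2.44 (SE 0.14, adjusted p 1.61e-05). The gene is often used as a reference gene in quantitative PCR. Of its partners, Rplp2 fell by 0.71 on the log2 scale (SE 0.22, adjusted p 0.0197), a call that was lost without either 6 h library (adjusted p 0.155 and 0.184) or the C17.2b 24 h one (0.0736), while Rplp1 was at -0.25 (SE 0.36, adjusted p 0.572) and Rpl12 at -0.02 (SE 0.30, adjusted p 0.954).

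The next highest changes were of Rpl10a (log2 fold change 2.21, SE 0.30), Rps9 (2.00, SE 0.17) and Rpl7a (1.98, SE 0.24), proteins of the large subunit but for Rps9, which belongs to the small one. The untreated Rpl10a readings were 2053 and 2889 RPM at 6 h, 1754 and 2651 RPM at 12 h and 11450 and 11140 RPM at 24 h. In both lines the 24 h library stood apart. Both members of the 5S particle rose: Rpl11 by 1.42 (SE 0.35, adjusted p 0.00625) and Rpl5 by 0.97 (SE 0.26, adjusted p 0.00921). Both calls were lost under median-ratio scaling, where Rpl11 was at 0.95 (adjusted p 0.0752) and Rpl5 at 0.50 (adjusted p 0.112), and without the C17.2a 6 h library (adjusted p 0.0798 and 0.0641). Rpl5 lost its call also without the C17.2b 6 h library (adjusted p 0.12), and with all 12 libraries in the fit, at 0.11 (adjusted p 0.902).

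The 5 symbols that fell with time were all of the large subunit. Rpl22 read 3143 and 3541 RPM at 6 h, 3938 and 3584 RPM at 12 h and 1012 and 1383 RPM at 24 h. The 24 h libraries were the lowest, with no overlap. It fell by 1.495 on the log2 scale (SE 0.26, adjusted p 0.00092). Rpl32 fell by 1.14 (SE 0.37, adjusted p 0.0244), Rpl19 by 1.08 (SE 0.35, adjusted p 0.0254) and Rpl23 by 0.94 (SE 0.33, adjusted p 0.0349). These 3 lost their calls with no filter (adjusted p 0.0633, 0.0629 and 0.0756). They also lost them without the C17.2a 6 h library (0.263, 0.277 and 0.31) and without the C17.2b one (0.286, 0.269 and 0.29), and Rpl23 without the C17.2a 24 h library (0.089). Rpl23a was just outside the threshold, at -0.68 (SE 0.27, adjusted p 0.0514).

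The paralog Rpl22l1 moved the other way from Rpl22, whose protein is known to repress it. Rpl22l1 read 47.2 and 90.2 RPM at 6 h, 49.6 and 92.9 RPM at 12 h and 139 and 158 RPM at 24 h. The 24 h libraries were higher in both lines. It rose by 1.17 (SE 0.19, adjusted p 0.000692), and the difference between the changes of the 2 genes was not tested. Of the other paralogs, Rps27l rose by 0.76 (SE 0.18, adjusted p 0.00487), beside its partner Rps27 at 0.69 (SE 0.26, adjusted p 0.0452), Rpl7l1 rose by 0.50 (SE 0.15, adjusted p 0.015), and Rpl36al was at 0.36 (SE 0.18, adjusted p 0.109). Under median-ratio scaling no call was left for Rps27l, at 0.29 (adjusted p 0.183), Rps27, at 0.22 (adjusted p 0.474), and Rpl7l1, at 0.03 (adjusted p 0.876). Rps27 lost its call in 8 of 13 alternatives, without either 6 h or either 24 h library among them (adjusted p 0.0626 to 0.47). The calls of Rps27l (adjusted p 0.115) and Rpl7l1 (0.154) were lost without the C17.2b 6 h library, and that of Rpl7l1 also without the C17.2a 24 h library (0.0735). Rps6, the substrate of the S6 kinases, was at 0.32 (SE 0.16, adjusted p 0.12), and Rpsa, also known as the laminin receptor, at -0.03 (SE 0.27, adjusted p 0.936).

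**Figure D2:**
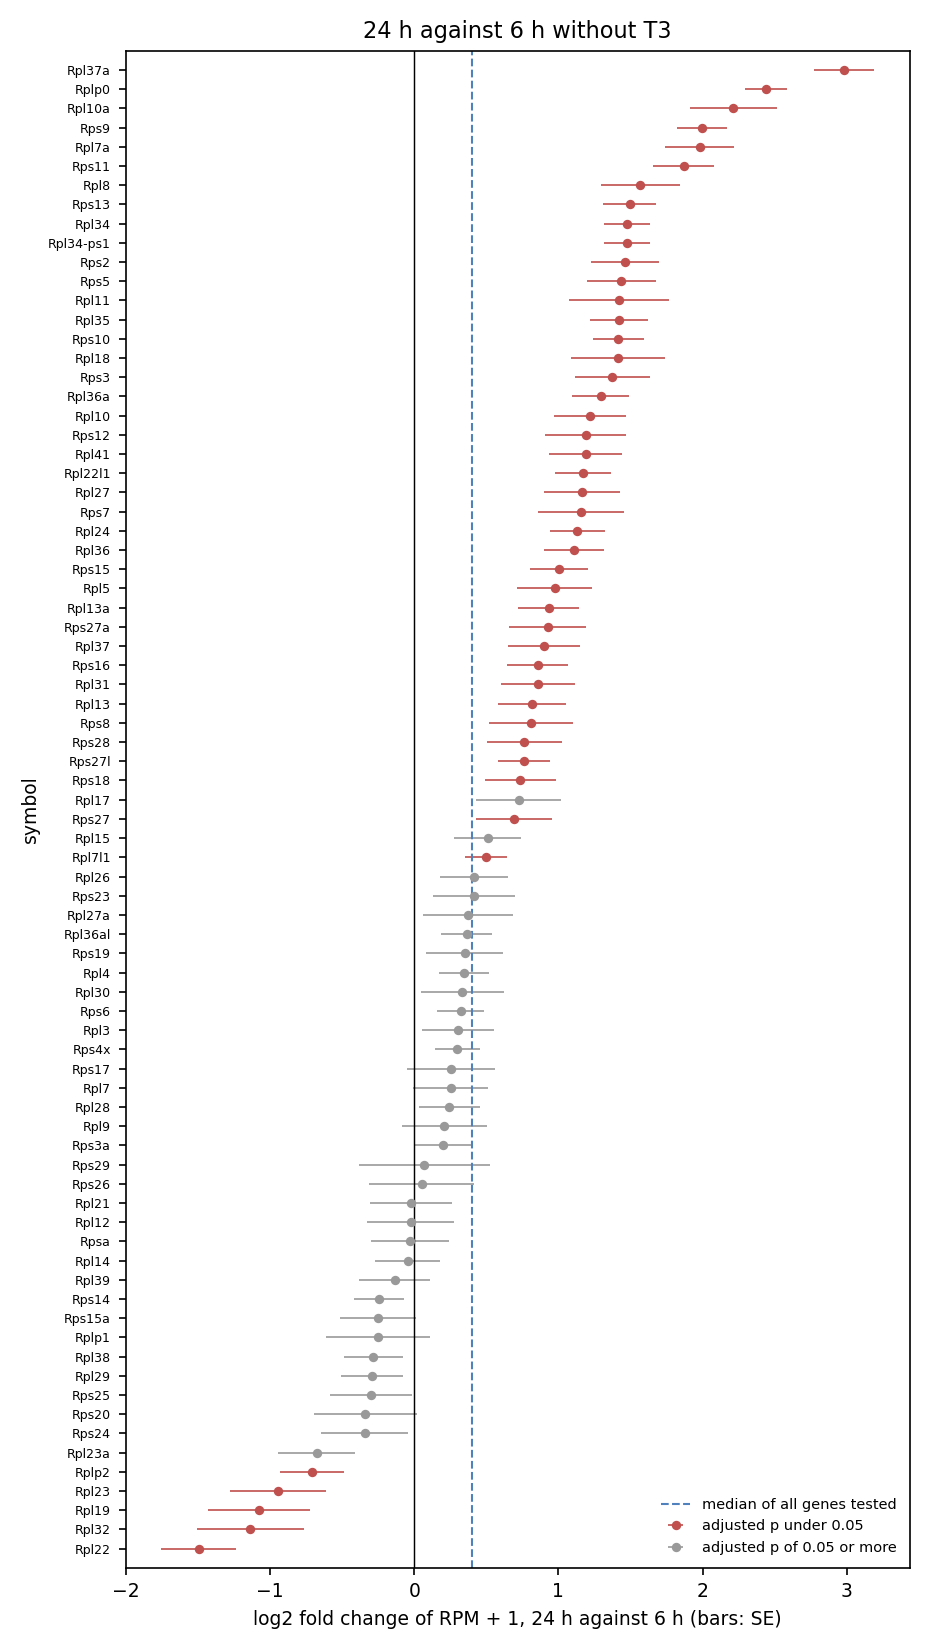
Log2 fold change of RPM + 1 between 24 h and 6 h in untreated cells for 78 of the 79 symbols tested, with standard errors as bars; red points passed an adjusted p of 0.05 and the dashed line is the median of all genes. Values run from -1.495 for Rpl22 to 2.98 for Rpl37a.

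The T3 libraries, which the test did not use, moved the same way for most of these symbols. Of the 41 that rose, 34 were higher at 24 h than at 6 h in the T3 libraries of C17.2a and 40 in those of C17.2b. All 5 that fell were lower at 24 h in both. The median log2 difference of all members in these T3 libraries was 0.38 in C17.2a and 0.41 in C17.2b, beside 0.27 and 0.44 for all genes. The change was late: between 6 h and 12 h without T3 the members' median log2 difference was -0.38 in C17.2a and 0.02 in C17.2b, against 0.65 and 0.64 between 6 h and 24 h. For all genes these medians were -0.14 and -0.01 between 6 h and 12 h, and 0.38 and 0.42 between 6 h and 24 h. The summed cell type markers differed with time as well. Those of neural progenitors were 2870 and 3028 RPM in the untreated 6 h libraries and 5907 and 5757 RPM at 24 h, mostly from Vim at 4941 and 4940 RPM. Those of fibroblast and muscle went from 2978 and 1436 RPM to 4832 and 2682 RPM, those of neurons from 71.4 and 93.3 RPM to 156 and 314 RPM, and those of oligodendrocytes from 124 and 116 RPM to 92.0 and 85.3 RPM. Their part in the change of the ribosomal protein symbols was not tested.

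**Figure D3:**
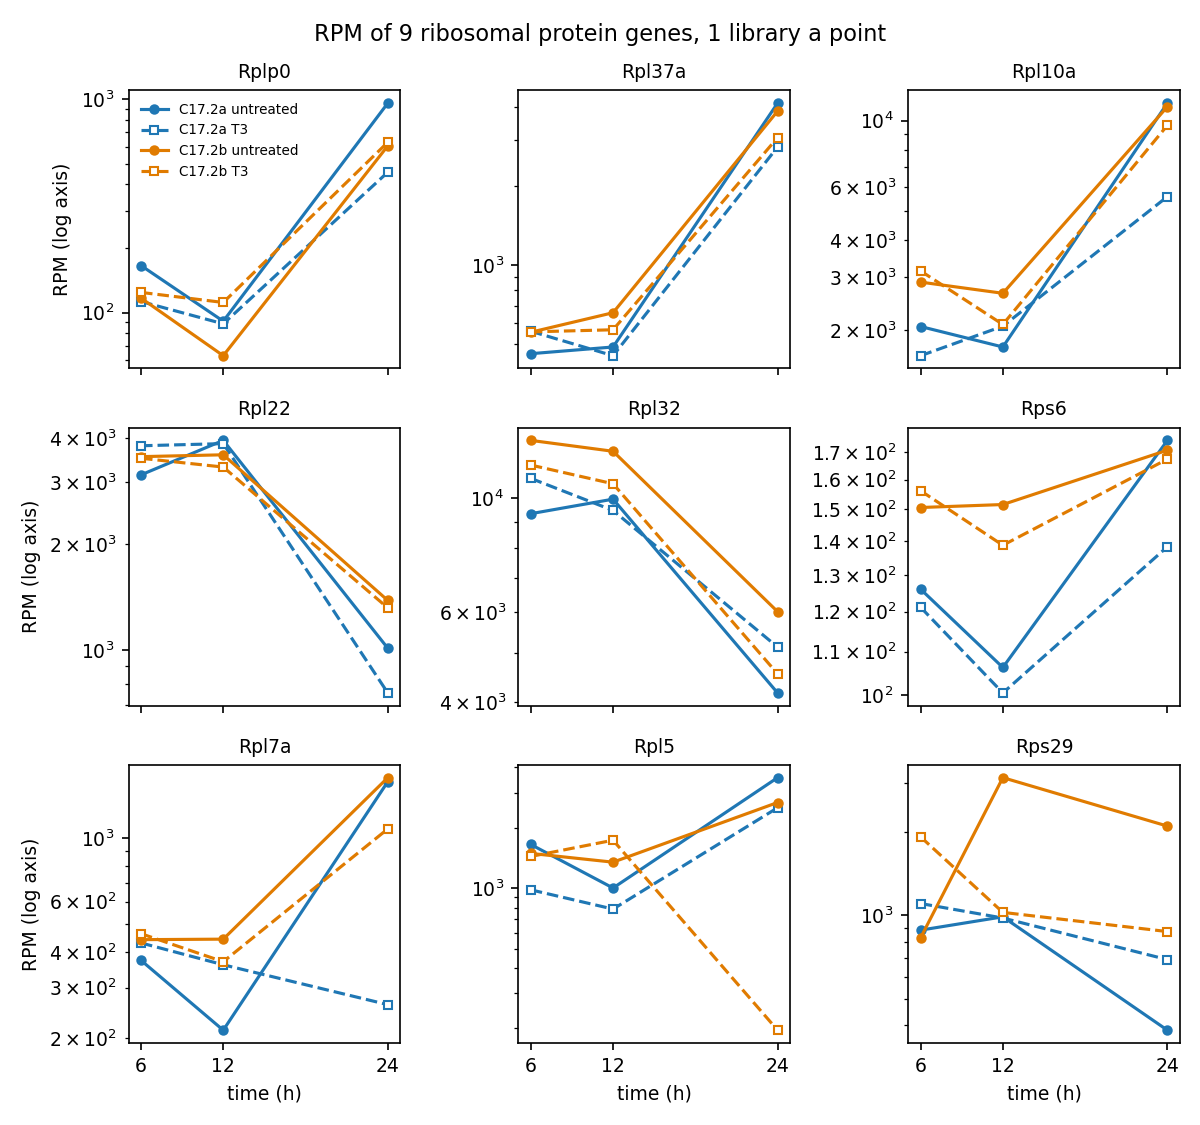
RPM (log axis) of 9 ribosomal protein genes against time (6, 12 and 24 h), 1 library a point; blue is C17.2a, orange C17.2b, filled points on solid lines are untreated and open points on dashed lines had T3. Rplp0, Rpl37a and Rpl10a are highest at 24 h, Rpl22 and Rpl32 lowest, and Rpl5 is at 196 RPM in 1 library only, C17.2b with T3 at 24 h.

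T3 moved no ribosomal protein symbol past the threshold in any comparison. For the response shared by the 6 pairs of libraries, 0 of 81 symbols passed an adjusted p of 0.05 in limma with the pair as a block, against 6.45% of the 10577 genes tested, and 5 had an unadjusted p under 0.05, of which 4 were lower. No other tool was run. The log2 fold change was below 0 for 72 of the 81 symbols, 88.9%, against 51.2% of all genes, but the sizes were small: the members' median was -0.10 and that of all genes -0.01. Without the C17.2a 24 h pair the members' median was -0.04, and without both 24 h pairs -0.02, beside 0.03 and 0.02 for all genes. The p-values measure the spread between pairs of differing line and time, not between replicate cultures.

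Rpl39, a short protein near the exit tunnel of the large subunit, came closest. It read 1949, 1309 and 1736 RPM without T3 and 1431, 1123 and 1475 RPM with T3 in C17.2a at 6, 12 and 24 h. In C17.2b it read 1564, 1730 and 1453 RPM without and 1487, 1255 and 1108 RPM with T3. It was lower with T3 in all 6 pairs, though the readings of the treated and untreated libraries overlapped between pairs. Its log2 fold change was -0.30 (SE 0.08, adjusted p 0.0627), and it was the 1 of 79 symbols that passed when the C17.2a 24 h pair was left out, a fit in which 15.0% of all genes did. Rpl7, Rpl31 and Rps3 were also lower in all 6 pairs, which makes 4 of the 79 symbols with at least 50 tags in every pair, and 0 were higher in all 6. Of 8502 genes with as many tags, 5.92% were lower and 8.94% higher in all 6 pairs, so the share of symbols that were lower was near that of genes at large.

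Past Rpl39, the lowest shared changes were of Rpl5 at -0.84 (SE 0.46, adjusted p 0.392), Rps3, a small-subunit protein at the entry of the mRNA channel, at -0.45 (SE 0.17, adjusted p 0.209), Rpl7a at -0.40 (SE 0.36, adjusted p 0.631) and Rps27 at -0.38 (SE 0.13, adjusted p 0.156). Rpl15 and Rpl14 followed at -0.38 (SE 0.26) and -0.37 (SE 0.23). The highest were Rpl26 at 0.37 (SE 0.20, adjusted p 0.386), Rps4x at 0.30 (SE 0.13, adjusted p 0.25), Rpl27 at 0.13 (SE 0.10), Rpl7l1 at 0.08 (SE 0.08), Rpl35 at 0.08 (SE 0.20) and Rpl11 at 0.04 (SE 0.20). Without the C17.2a 24 h pair the sign of Rpl7a turned to 0.03 and that of Rpl11 to -0.01. Of the other members followed by role, none passed the test: Rps6 was at -0.10 (SE 0.08), Rpsa at -0.30 (SE 0.14), Rpl12 at -0.17 (SE 0.09), Rplp0 at -0.12 (SE 0.21), Rplp1 at -0.13 (SE 0.08), Rplp2 at -0.03 (SE 0.08), Rpl22 at -0.06 (SE 0.09), Rpl36al at -0.03 (SE 0.09), Rpl22l1 at -0.14 (SE 0.09) and Rps27l at 0.00 (SE 0.10). Rps4y2 and Rps19bp1, close to the filter, were at -0.04 (SE 0.16) and -0.14 (SE 0.18), and Rpl34 and Rpl34-ps1, with equal values, at -0.04 (SE 0.09).

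By line, 0 of 81 symbols passed in C17.2a, where 1.37% of all genes did, and 8 had an unadjusted p under 0.05. In C17.2b 0 passed, against 3.11% of all genes, and 2 had such a p. Without the C17.2b 6 h pair 1 passed in C17.2b, Rps29, against 1.13% of all genes. The members' medians were -0.15 in C17.2a and -0.07 in C17.2b, beside -0.06 and 0.05 for all genes. Without the line's own 24 h pair the median was -0.04 in C17.2a, and in C17.2b it turned to 0.01, beside -0.01 and 0.05 for all genes. For the difference of the response between the lines 0 symbols passed, as did 0.0% of all genes, and 4 had an unadjusted p under 0.05.

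By time, 0 of 81 symbols passed at 6 h (0.161% of all genes, 1 unadjusted p under 0.05) and at 12 h (0.492%, 0 such p), and the members' medians were -0.01 and 0.01. With the C17.2a or the C17.2b 24 h pair left out 1 of 79 symbols passed at 6 h, Rps7, against 6.54% and 6.59% of all genes. At 24 h 0 passed, against 1.06% of all genes, and 24 symbols had an unadjusted p under 0.05, 22 of them lower. The share of all genes with such a p was not counted, here or in the other T3 comparisons. The members' median there was -0.28, against -0.04 for all genes, and 71 of 81 were below 0, 87.7% against 53.3% of all genes. The smallest p belonged to Rps27, at -0.75 (SE 0.20, adjusted p 0.165). Without the C17.2b 24 h pair, on the C17.2a pair alone, 37 of 79 symbols passed, 36 of them lower, in a fit in which 41.6% of all genes passed, 25.6% lower and 16.0% higher. Without the C17.2a 24 h pair 2 passed, Rpl26 higher and Rpl5 lower, against 5.66% of all genes. For the difference of the response between the 3 times 0 symbols passed, against 0.0% of all genes, and 3 had an unadjusted p under 0.05. Without the C17.2b 24 h pair 29 of 79 passed, against 27.4% of all genes, and without the C17.2a 24 h pair 1 did, Rpl5, against 0.481%.

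Both 24 h pairs had lower values with T3, but not of the same size. A symbol was counted in a single pair at a ratio of at least 1.5-fold with at least 50 tags, and 1 library a group allows no test. In C17.2a at 24 h, 32 of 79 symbols were that much lower with T3 and 3 higher, against 30.5% lower and 18.4% higher over all genes in the pair. The members' median log2 ratio was -0.37, against -0.08 for all genes and 0.21 for genes with a mean of at least 50 RPM. In C17.2b at 24 h, 4 symbols were 1.5-fold lower and 1 higher, against 5.6% and 11.4% of all genes. There the shift was small and broad: 70 of 79 symbols were below 0, 88.6%, against 42.0% of all genes, and the median was -0.21 against 0.06. The summed neural progenitor markers were 5907 RPM untreated and 1761 RPM with T3 in C17.2a at 24 h, and 5757 and 3161 RPM in C17.2b. The fibroblast and muscle markers were 4832 and 7302 RPM in C17.2a and 2682 and 3098 RPM in C17.2b, the neuron markers 156 and 78.7 RPM in C17.2a and 314 and 578 RPM in C17.2b, and the oligodendrocyte markers 92.0 and 99.2 RPM in C17.2a and 85.3 and 129 RPM in C17.2b. The C17.2a library with T3 at 24 h also had the most N/A values, 875 of 12774 symbols, against 479 to 812 in the others. The part of these in the lower ribosomal protein values was not tested.

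The earlier pairs had few symbols past 1.5-fold. In C17.2a at 6 h 3 were lower and 2 higher, against 8.42% and 6.43% of all genes, and at 12 h 2 were lower and 2 higher, against 4.92% and 8.45%. In C17.2b at 6 h 0 were lower and 1 higher, against 5.88% and 11.1%, and at 12 h 1 was lower and 3 higher, against 5.6% and 9.08%. The members' median was between -0.15 and 0.06 in these 4 pairs.

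**Figure D4:**
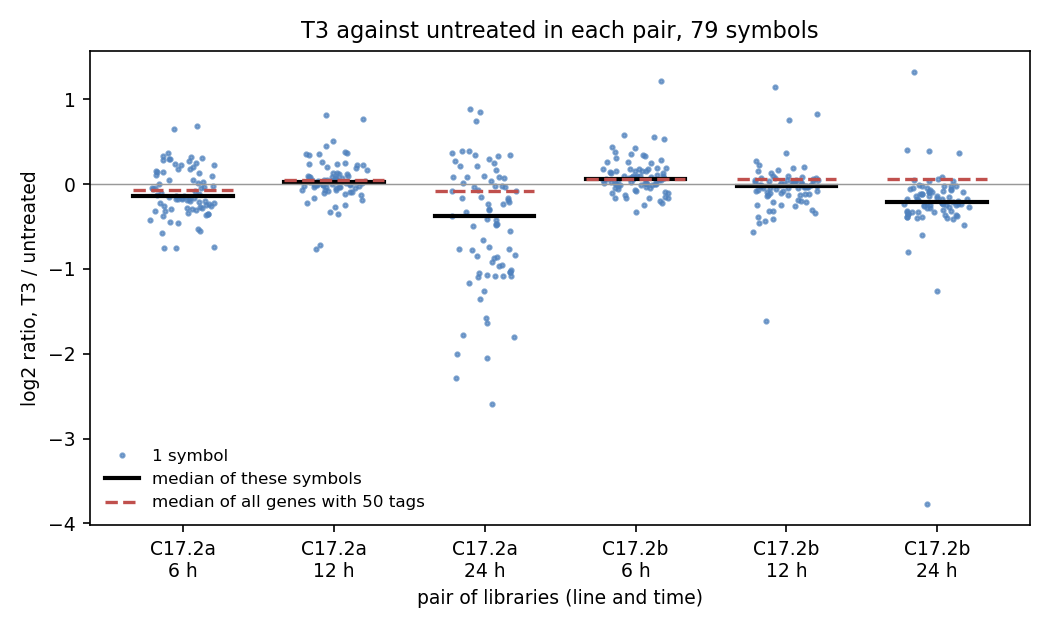
Log2 ratio of T3 to untreated for 79 ribosomal protein symbols in each of the 6 pairs of libraries; each point is 1 symbol, the black bar is their median and the dashed red bar the median of all genes with 50 tags. The C17.2a 24 h pair has the widest spread, with a median of -0.37, and the C17.2b 24 h pair a narrow shift with a median of -0.21.

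Rpl7a was the only symbol at least 1.5-fold lower in both 24 h pairs. It read 1579 RPM untreated and 262 RPM with T3 in C17.2a, and 1632 and 1079 RPM in C17.2b. At 6 h it read 374 and 430 RPM in C17.2a and 442 and 464 RPM in C17.2b. In the treated C17.2a series the 24 h reading was thus the lowest of the 3 times, and in the other 3 series it was the highest. The log2 ratio at 24 h was -2.59 in C17.2a and -0.60 in C17.2b. The other low ratios of the C17.2a pair were Rpl18 at -2.29, Rpl15 at -2.05, Rps14 at -2.01 and Rpl14 at -1.80. In C17.2b the same 4 genes had 0.36, -0.09, -0.32 and -0.12.

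Rpl5 was low in a single library. It read 196 RPM in the C17.2b library with T3 at 24 h and 787 to 3559 RPM in the other 11. Its untreated partner had 2675 RPM, a log2 ratio of -3.77, and the C17.2a pair had 3559 and 2519 RPM, a log2 ratio of -0.50. Rpl11, its partner in the 5S particle, had 1453 and 1220 RPM in the same C17.2b pair. Rps29, a small zinc-binding protein of the small subunit, was uneven between libraries. It ran from 384 RPM in C17.2a untreated at 24 h to 3132 RPM in C17.2b untreated at 12 h. Its log2 ratios of T3 to untreated were from -1.61 to 1.21. In C17.2a with T3 it was steadier, at 1101, 976 and 691 RPM.

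The ratios of the C17.2a 24 h pair varied with properties of the transcript. Tag libraries of this kind often read the site of a cutting enzyme nearest the polyA tail, CATG or GATC, but the enzyme used was not given in the sources used here. GENCODE M21 transcripts were found for 79 of the 81 symbols, and the log2 ratio was taken here of RPM + 1. Spearman's rho between this ratio and the distance from the last CATG to the transcript end was -0.41 over the members and -0.33 over 9828 genes. For the last GATC rho was -0.29 over the members and 0.01 over all genes. With GC content it was -0.33 and -0.36, and with transcript length -0.19 and 0.10. The 23 symbols with the last CATG within 100 bases of the end had a median of 0.01, and the 56 others a median of -0.71. This limit was chosen after the values were seen.

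In the C17.2b 24 h pair the same medians were -0.24 and -0.17, and rho was 0.21 over the members and 0.05 over all genes. For 24 h against 6 h without T3, the medians were 0.26 for the 23 near symbols and 0.86 for the 55 others, and rho was 0.20 over the members and 0.21 over all genes. The genes of 1 library share its depth and its RNA, so these are descriptions. The part of transcript properties in either change was not tested.

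**Figure D5:**
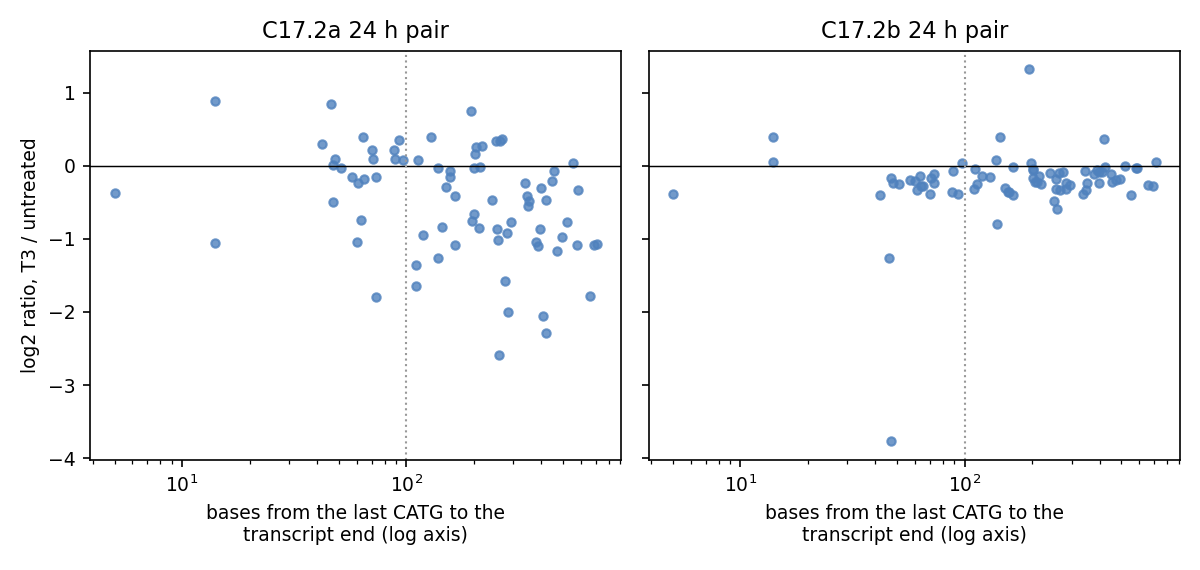
Log2 ratio of T3 to untreated at 24 h against the distance in bases from the last CATG to the transcript end (log axis) for ribosomal protein symbols, C17.2a on the left and C17.2b on the right; the dotted line is 100 bases. In C17.2a the 23 symbols left of the line have a median of 0.01 and the 56 to the right -0.71, while in C17.2b the medians are -0.24 and -0.17.

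The 11 genes with a C and pyrimidine run at the annotated start had a median log2 fold change of -0.55 at 24 h with T3, with 10 of 11 below 0. The 48 others with a start window had -0.25, with 42 below 0. For 24 h against 6 h without T3 the medians were 0.32 for the 11 genes and 0.86 for 47 others, and 4 of the 11 rose and 1 fell, against 29 and 3 of the 47. Genes at large had a median of 0.40, and 43.0% of them rose and 13.1% fell. The difference between the classes was not tested.

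Without T3 the lines differed in 3 of 79 symbols, against 8.85% of all genes (limma, time as a block). Here p measures how far the difference varies over the 3 times, not the spread between replicate cultures. Rplp0 was lower in C17.2b by a log2 difference of -0.57 (SE 0.12, adjusted p 0.0161). It read 166, 91.2 and 960 RPM in C17.2a at 6, 12 and 24 h and 117, 62.9 and 606 RPM in C17.2b. It was lower in C17.2b at each time without T3. With T3 it was higher in C17.2b at each time, at 124, 112 and 629 RPM against 113, 88.7 and 456 RPM. Rpl22l1 was higher in C17.2b, by 0.67 (SE 0.16, adjusted p 0.0273), at 90.2, 92.9 and 158 RPM against 47.2, 49.6 and 139 RPM. Rpl35, a large-subunit protein at the exit tunnel, was higher by 0.69 (SE 0.16, adjusted p 0.029), at 25.8, 28.5 and 91.6 RPM against 21.7, 15.6 and 45.7 RPM. For each of the 3 genes the direction without T3 was the same at all 3 times, but the readings of the lines overlap between times. With T3, Rpl35 read 29.3, 22.85 and 52.6 RPM in C17.2b against 34.8, 27.6 and 44.5 RPM in C17.2a, so it was lower at 6 and 12 h. Rpl22l1 stayed higher in C17.2b with T3, at 80.1, 78.4 and 135 RPM against 51.5, 41.8 and 133 RPM. Rps29 had the highest difference, 1.34 (SE 0.37, adjusted p 0.0538). The next in size were Rpl7a at 0.45, Rpl32 at 0.44 and Rps4x at 0.41 on the higher side, and Rps20 at -0.39, Rpl36al at -0.28, Rpl18 at -0.23, Rpl11 at -0.20 and Rps27 at -0.19 on the lower side. Rplp0 lost its call when either 6 h library was left out, Rpl22l1 without either 6 h or 12 h library, and Rpl35 without either 12 h or 24 h library. With no time block 0 symbols passed, with all 12 libraries 1 did (Rpl22l1), and with no filter 1 did (Rplp0), against 0.00981%, 10.6% and 5.03% of all genes.

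Other genes of the same machinery were read from lists written with earlier results of these data known. For the shared T3 response, 0 of 46 ribosome assembly genes, 0 of 13 genes of RNA polymerase I and its factors, and 0 of 74 mitochondrial ribosomal proteins passed. Their medians were 0.14, 0.12 and -0.0023, beside -0.10 for the cytosolic symbols and -0.01 for all genes. The share of all genes that passed was 6.45%, with 4.09% higher and 2.35% lower. Of 20 other messenger RNAs known for a TOP tract, most of them of translation, 1 fell, Vim, at -1.04 (SE 0.16, adjusted p 0.00591). Vim is an intermediate filament gene, not one of translation, and is also a progenitor marker. A list on the control of ribosomal protein messenger RNAs, which also holds Mdm2 and the p53 gene Trp53, had 27 genes tested. Of these 1 rose, Ddit4, an inhibitor of mTOR complex 1, at 1.05 (SE 0.16, adjusted p 0.0051). Eif4ebp1, which mTOR inhibits to release translation, was at 0.39 (SE 0.12, adjusted p 0.091).

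For 24 h against 6 h without T3, 39 of 73 mitochondrial ribosomal proteins rose and 10 fell, with a median of 0.60 beside 0.72 for the cytosolic ones. Of 46 ribosome assembly genes 16 rose and 13 fell, with a median of -0.04. Over all genes tested 43.0% rose and 13.1% fell, with a median of 0.40. Among the ribosomal proteins that the naming rule leaves out, Gnb2l1 (Rack1, a scaffold on the small subunit) rose by 1.80 (SE 0.18, adjusted p 5.4e-05), while Fau was at -0.16 (SE 0.31, adjusted p 0.677).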

How the data were processed

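Messenger RNA was read as sequence tags in 12 libraries, 1 for each line, treatment and time. The authors deposited 1 table of RPM, tags scaled to 1e+06 per library, a unit read from the column sums. The genome build was mm9 per the submitters' processing notes. The aligner, the tag enzyme and the way tags were assigned to genes are not given in the sources used here. Low values lay on steps of 1 tag for 90.4% to 94.6% of values (tolerance 0.0055 RPM). Whole tags could not be recovered, and a count test was therefore not run. N/A was read as 0. A gene entered a fit if 3 or more of its libraries had 1 RPM or more. The test was limma 3.58.1 in R 4.3.3 on log2(RPM + 1), using eBayes with a trend, and p was adjusted by Benjamini-Hochberg over every gene in the fit, at 0.05. Such fold changes understate low genes. The fits had 5 residual degrees of freedom for the shared response, 4 by line, 3 by time and 2 in untreated cells, so their number limits the precision. Of these fits, only that of the shared response was tested on simulated data with known changes. Single-pair ratios had a prior of 2 tags per library added. Start windows came from RefSeq (GRCm38.p6), transcripts from GENCODE M21. Members named were fixed examples by role (stalk, 5S particle, Rpsa, Rps6, Rps27, Rpl22, paralogs), those past 0.05 and the 6 highest and 6 lowest changes. Of other lists up to 4 genes with the smallest p could be named. A few picks are not reported here. The members, the lists and the tests were chosen with earlier results of these data known. The alternatives were median-ratio scaling, other filters and pseudocounts, leaving out each pair or library or both 24 h pairs, other blocks and sets of libraries, and other folds and priors for single pairs.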

Additional observations from a re-analysis of the deposited data

Results flagged for a closer look

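In 17 of 78 symbols with at least 50 tags in every pair, 1 of the 6 pairs stood apart from the other 5 in its log2 ratio of T3 to untreated, by a gap larger than chance gives in about 1 of 20 such groups. Over 8502 genes with as many tags the share was 21.3%, near the 21.8% of the symbols. For 14 of the 17 the pair was C17.2a at 24 h, always with the lower value, which is 17.9% of the symbols against 12.7% of all genes, and another 6.34% of all genes had the higher value there. These log2 ratios were Rpl10 -0.41, Rpl13a -0.95, Rpl14 -1.80, Rpl15 -2.05, Rpl18 -2.29, Rpl24 -0.78, Rpl28 -1.09, Rpl29 -1.58, Rpl7 -0.47, Rpl8 -0.66, Rps14 -2.01, Rps15 -0.76, Rps2 -1.09 and Rps7 -1.64. In C17.2a at 6 h the ratio stood apart for Rpl21 at -0.47, with the others between -0.07 and 0.15, and for Rps28 at -0.75, with the others between -0.04 and 0.36. In C17.2b at 24 h it stood apart for Rpl5, at -3.77, with the other pairs between -0.75 and 0.36. The median of all 79 symbols did not stand apart in any pair.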

How the results depend on the processing

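For T3, 0 symbols passed under median-ratio scaling, the other filters and pseudocounts, no pair block and each line alone, and the medians stayed within the spread between pairs. Without both 24 h pairs 1 symbol passed in the shared response (Rps7), 3 in C17.2a (Rpl5, Rpl35 and Rps7), 1 in C17.2b (Rps13) and 1 at 6 h (Rps7), of 79 tested, against 13.4%, 6.68%, 9.93% and 6.63% of all genes. With 1 pair left out, 0 to 1 passed in the shared response, in C17.2b and at 6 h, 0 to 37 at 24 h and 0 to 29 for the difference between times, and in the fits with 37 and 29, 41.6% and 27.4% of all genes passed; the lone pair of a time is then assumed to vary like the others.

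For 24 h against 6 h without T3, the members' median was 0.25 with median-ratio scaling, 0.69 with no filter and 0.52 with all 12 libraries. With 1 library left out, 30 to 49 symbols (38.9% to 58.0% of all genes) passed and the median ran from 0.48 to 0.84. Between the lines, 2 to 4 symbols (4.09% to 11.7% of all genes) passed with 1 library left out, 1 with no filter, 1 with all 12 libraries and 0 with no time block. At 2-fold, the C17.2a pairs had 0 symbols higher and 0 lower at 6 h and at 12 h, and 0 higher and 20 lower at 24 h, and the C17.2b pairs 1 higher and 0 lower at 6 h, 1 higher and 1 lower at 12 h, and 1 higher and 2 lower at 24 h.

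Of 741 recomputed values of named members, 645 kept their sign and their side of the threshold, 49 lost and 17 gained a call, and 30 changed sign. In the shared T3 response without both 24 h pairs, the sign turned for Rpl7a (0.19), Rplp0 (0.077), Rps27l (-0.0065), Rpl22 (0.028) and Rpl36al (0.055), and with median-ratio scaling for Rps27l (-0.0069). With 1 pair left out, the ranges that cross 0 were -0.64 to 0.034 for Rpl7a, -0.18 to 0.19 for Rpl11, -0.060 to 0.25 for Rpl35, -0.31 to 0.073 for Rplp0, -0.084 to 0.011 for Rplp2, -0.071 to 0.067 for Rps27l, -0.13 to 0.0086 for Rpl22 and -0.076 to 0.025 for Rpl36al. For 24 h against 6 h, Rpl12 turned to 0.027 with all 12 libraries, and Rps6 to -0.15 and Rpl36al to -0.11 with median-ratio scaling; with 1 library left out Rpl12 ran from -0.30 to 0.25 and Rpsa from -0.21 to 0.15. Between the lines, Rpl18 turned to 0.17 with all 12 libraries and ran from -0.63 to 0.27 with 1 left out, and Rpl11 from -0.58 to 0.34. None of these sign changes concerned a called value. The cause was not tested.

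No paired analysis by replicate number was possible because every label has a single library. Rpl3l and Rpl6, at most at 0.21 and 0.53 RPM, lay near or below the level of 3 tags, where depth limits the readings. Rps4y2 and Rps19bp1 were also low, but reached 1.63 and 3.57 RPM. Why Rpl6 read so low was not tested.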
